A study of Mus musculus with 12 samples.

Results

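The genes described here are 10 transcription factors that set up and maintain the hepatocyte lineage: Hnf4a, Foxa1, Foxa2, Foxa3, Cebpa, Cebpb, Gata4, Gata6, Prox1 and Onecut1. They were chosen by name, and a gene was measured through the array probes that carried its name. The files held 9 of the 10, by 14 of the 42235 probes with a place in the genome, among 20464 gene names tested in all. No probe was named Cebpb. The measurement was array-based comparative genomic hybridization (aCGH), in which DNA of a tumor and DNA of a reference compete for the same probes, so that each probe gives a ratio of DNA amounts. Here Cy5-labelled DNA of 12 liver tumors was set against Cy3-labelled DNA of tumor-free liver, described in the methods as matched to the tumor, with 1 array per tumor and no dye swap. All mice were Mdr2-KO, which lack the phospholipid transporter encoded by Abcb4 and develop chronic liver inflammation followed by hepatocellular carcinoma (HCC), and all were of the FVB strain. In 6 mice, 4 males and 2 females, 70% of the liver had been removed by partial hepatectomy (PHx) at 3 or 6 months of age, and their tumors were taken at 9 months. These post-PHx tumors are named PHx1M to PHx6F, the last letter giving the sex. The other 6 tumors, Spon1M to Spon6F, arose spontaneously in untreated mice, 2 males at 14 months and 4 females at 13 months. Treatment, age and the balance of the sexes therefore differed together and cannot be told apart. PHx1M to PHx4M shared 1 array slide and Spon1M to Spon4F another, so that for these arrays slide and group cannot be told apart either. PHx5M, PHx6F, Spon5F and Spon6F shared the slide that held both groups.

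A small set of DNA-binding proteins defines the hepatocyte. FOXA proteins open chromatin ahead of other factors, GATA factors act with them when the liver bud forms, and HNF4A, C/EBP, PROX1 and ONECUT1 then turn on and hold the genes for plasma proteins, bile acid synthesis and metabolism. Because these proteins bind each other's genes, their dosage in liver tumors is of interest. An array of DNA shows how many copies of a gene a tumor holds relative to liver, but not whether the gene is expressed, and no marker gene can check the tissue in such data. The tumors were described as well differentiated carcinomas. A ratio is an average over all cells of a sample, so fewer tumor cells with more copies and more tumor cells with fewer copies cannot be told apart, although the tumors were chosen with few other cells on sections.

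The value given for a gene is its window: the mean log2 ratio (tumor over liver) of its own probes and of 10 flanking probes on either side, with each array centred on its autosomal median. A window held 20 to 22 probes with a value over 0.327 to 2.39 Mb, and its standard error over probes was 0.022 to 0.141, with a median of 0.038. A window is called gained at a log2 ratio of at least 0.4, which is 1.32-fold, and lost at -0.4 or less. None of the 168 readings of the members' probes was saturated or failed to stand well above background, and 1, of Prox1 in PHx1M, was marked an outlier and dropped. The noise between neighbouring probes was 0.147 to 0.265 (log2) per array.

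The arrays of Spon1M, Spon2M and Spon3F, which shared a slide with that of Spon4F, stood apart from the other 9. On them 370 to 1284 of 38290 single probes lay more than 1 log2 unit from the running median of 11 probes around them, against 7 to 96 on the others. All 3 arrays shared 264 such probes, and at all 264 Spon1M and Spon3F deviated in one direction and Spon2M in the other. Such probes lay in the windows of Foxa2 and Onecut1 on all 3 arrays, in those of Hnf4a on 2 of them, and in those of Cebpa and Foxa3 in Spon3F. Over all probes the lowest correlation between any pair of arrays was r = -0.20, of Spon2M with Spon5F. PHx6F was most like Spon6F (r = 0.60) and Spon5F (r = 0.52), which shared its slide. PHx5M, the only male tumor on that slide, was less like them, with r = 0.24 for PHx6F, 0.29 for Spon6F and 0.13 for Spon5F. Among the arrays that stood apart r was -0.12 for Spon1M with Spon2M, 0.40 for Spon1M with Spon3F and -0.13 for Spon2M with Spon3F. Whether tumor and liver DNA on these 3 arrays came from the same mouse was not tested, and every ratio of Spon1M, Spon2M and Spon3F, including the loss of Prox1 and the raised stretch around Hnf4a given below, is to be read with this limit. Results are therefore also given without these 3 arrays, and, where it matters, with the median of a window in place of its mean.

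Copies of these genes were gained mainly in the post-PHx tumors. Of 108 pairs of a member and a tumor, 11 windows (10.2%) were gained, against 1.87% of such pairs over all genes tested. All 11 lay in post-PHx tumors, where they made up 20.4% of 54 pairs against 2.21% over all genes. None of the 54 pairs in spontaneous tumors was gained, against 1.53% over all genes. These pairs are not separate events, since Hnf4a and Foxa2 of PHx4M lay in 1 region. The members were also chosen with earlier results of these data known, so the shares do not test the gene class. Gata6 gave 4 of the 11, Hnf4a, Foxa3 and Cebpa 2 each and Foxa2 1, and 5 of the 9 members (15.9% of all genes) were gained in at least 1 tumor, and 1 was lost in at least 1 (11.9% of all genes). By tumor, PHx3M held 4 gained members, PHx4M 3, PHx1M 2, PHx2F and PHx6F 1 each, and PHx5M none. Every gain but that of Gata6 in PHx6F thus lay on the slide of PHx1M to PHx4M, which held no spontaneous tumor. A single window was lost, that of Prox1 in Spon3F, against 1.01% of all pairs and 2.02% of pairs in spontaneous tumors over all genes. Foxa1, Gata4 and Onecut1 were neither gained nor lost in any tumor. The absence of gains from the spontaneous tumors depended on the summary chosen. With window medians 11 post-PHx pairs and 1 spontaneous pair were gained, against 2.16% and 1.6% of pairs over all genes. At a threshold of 0.3 they were 12 and 6, against 3.15% and 3.96%. With the genes' own probes alone they were 11 and 8, against 3.35% and 4.12%, so that over all genes the spontaneous tumors then had the higher share. None of the 11 gains lay on the 3 arrays that stood apart, and the loss did.

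**Figure D1:**
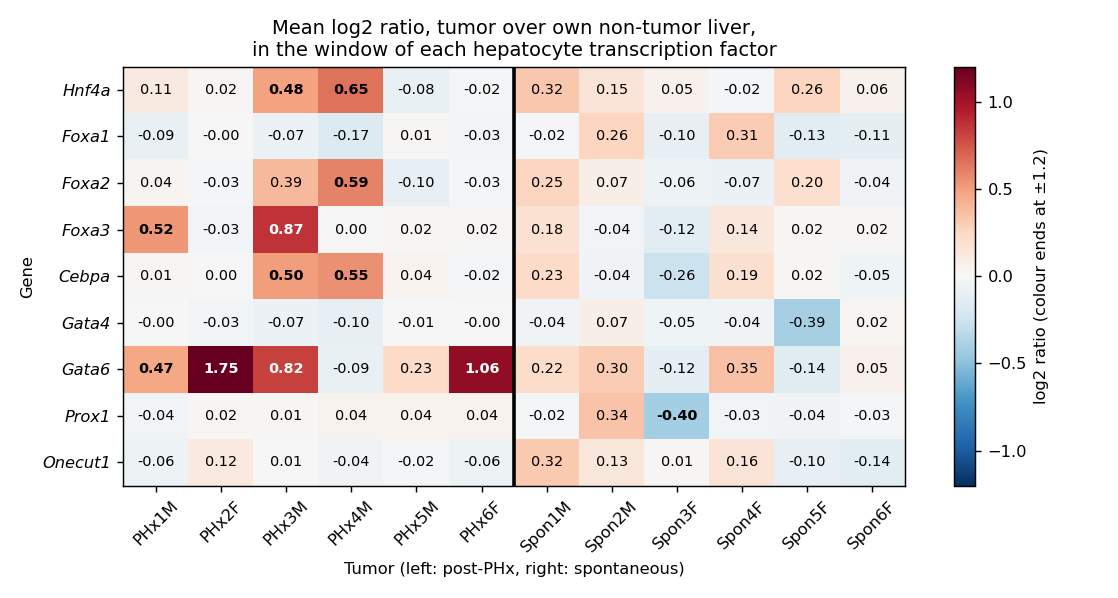
Window mean log2 ratio (tumor over non-tumor liver) of the 9 measured hepatocyte transcription factors, 1 row per gene and 1 column per tumor, with post-PHx tumors left and spontaneous tumors right of the black line. Red is gained and blue lost relative to liver, and values at or beyond 0.4 in size are in bold: 11 gains left of the line and 1 loss, Prox1 in Spon3F, right of it.

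Larger aberrations were also called on each array alone, as runs of at least 2 probes with a score of at least 6. Their level, a mean log2 ratio weighted by probe error, had to be at least 0.4 in size. The means printed for called regions are unweighted. Of the 108 pairs, 11 lay in an amplified region (1.73% over all genes), 9 of them in post-PHx tumors (2.06% over all genes) and 2 in spontaneous ones (1.41%). A further 2 lay in a deleted region (0.695% over all genes), both in spontaneous tumors (1.39%). These 13 pairs lay in 12 regions of 1.42 to 117 Mb, with 66 to 1540 probes each. Without the 3 arrays that stood apart, 10 pairs lay in a region.

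Hnf4a and Foxa2 lie on the same chromosome and moved together. HNF4A is the nuclear receptor that most broadly controls hepatocyte gene expression, and FOXA2 is a FOXA protein also needed for bile acid and lipid balance. The single Hnf4a probe lies on chromosome 2 at 163262880 to 163262939 (build mm8), between the array's genes Gdap1l1 and Serinc3, and that of Foxa2 at 147734393 to 147734449, between Pax1 and Thbd, 15.5 Mb away. In the post-PHx tumors the Hnf4a window ranged from -0.08 to 0.65 with a median of 0.06, and in the spontaneous ones from -0.02 to 0.32 with a median of 0.10. The high tumors were PHx4M at 0.65 and PHx3M at 0.48, and the groups overlapped. Foxa2 ranged from -0.10 to 0.59 (median 0.00, post-PHx) and from -0.07 to 0.25 (median 0.02, spontaneous). It was highest in the same tumors, at 0.59 in PHx4M and at 0.39, just under the threshold, in PHx3M.

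In PHx4M both genes lay in one amplified region that ran from position 142819528 to 181797594 on chromosome 2, 39.0 Mb to the last probe, with 886 probes at a mean of 0.63 (1.54-fold). Gdap1l1 and Serinc3, on either side of Hnf4a, were at 0.51 and 0.47 there, and Thbd, beside Foxa2, at 0.78. In PHx3M a stretch of 40.6 Mb around both genes stood at a weighted level of 0.396 and so just missed the filter for a region. In Spon1M the probes from Foxa2 to Hnf4a, 411 of them, had a median of 0.42 and a mean of 0.38, close to the level of PHx3M, where 400 probes had a median of 0.41. In this spontaneous tumor Foxa2 lay in a region of 4.27 Mb at 0.42 and Hnf4a in one of 9.87 Mb at 0.41. Both only just passed the filter, at a weighted level of 0.4001, the scale on which the stretch of PHx3M stood at 0.396. Their window means were 0.25 and 0.32 and their window medians 0.37 and 0.43. The Foxa2 window of Spon1M included the Pax1 probe, which stood at -2.08 there, at -2.72 in Spon3F and at 1.98 in Spon2M, and the position where its region began, 147074927, was also an edge between levels on those 2 arrays. Gdap1l1 and Serinc3, beside Hnf4a, were at -0.29 and -0.11 in Spon1M. The Hnf4a region of Spon1M ended at position 165526192, which was also an edge between levels in Spon2M. The part of these shared probes and edges in the result was not tested. In Spon5F the same stretch had a median of 0.29, and the window of Hnf4a was at 0.26, while chromosome 2 as a whole had a median of 0.19. In the other 8 tumors the median of the stretch lay between -0.07 and 0.04.

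**Figure D2:**
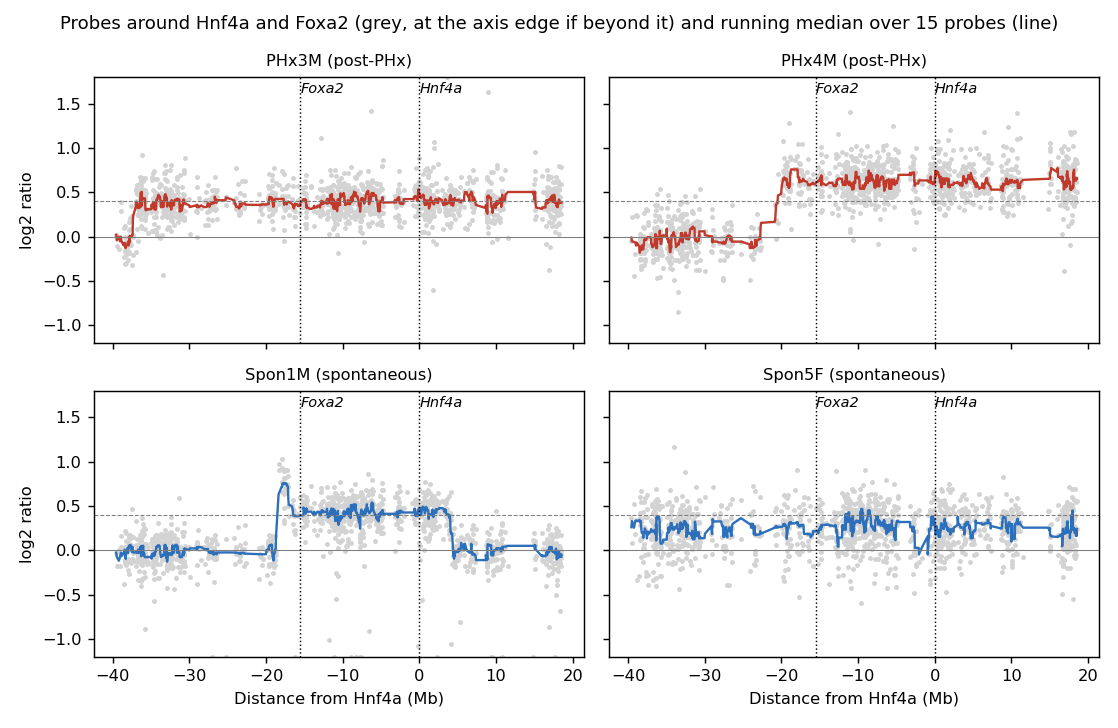
Log2 ratio of probes (grey dots) against their distance in Mb from Hnf4a in 4 tumors, with the running median of 15 probes as a line (red, post-PHx; blue, spontaneous), dotted lines at Foxa2 and Hnf4a and a dashed line at 0.4. The running median is raised at both genes, with medians between them of 0.41 in PHx3M, 0.62 in PHx4M, 0.42 in Spon1M and 0.29 in Spon5F.

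Cebpb, whose protein C/EBP-beta drives the acute phase response and takes part in liver regeneration, had no probe of its own name. By the gene order of the later build GRCm38 it lies between Ube2v1 and Ptpn1, and in the files these genes bound a stretch of 0.314 Mb on chromosome 2 (mm8, 167319284 to 167633425) with 5 probes. The mean of these probes was 0.63 in PHx4M, 0.33 in PHx3M and 0.28 in Spon5F. In Spon1M it was 0.04, beyond the end of the plateau around Hnf4a at position 165526192, an edge that Spon2M shared. The other tumors lay between -0.19 and 0.16. This is the level of the neighbourhood and not of Cebpb itself.

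Foxa3 and Cebpa share chromosome 7 and were both gained in PHx3M, whereas PHx1M had a gain of Foxa3 alone and PHx4M of Cebpa alone. FOXA3 is the FOXA protein linked to glucose metabolism in adult liver, and C/EBP-alpha holds hepatocytes in a quiescent, metabolically active state. Foxa3 was read by 2 probes at 18177154 to 18180688 (mm8), between Irf2bp1 and Rshl1, and Cebpa by 1 probe at 34830133 to 34830191, between Cebpg and Slc7a10 and 16.7 Mb from Foxa3. Foxa3 ranged from -0.03 to 0.87 in the post-PHx tumors (median 0.02) and from -0.12 to 0.18 in the spontaneous ones (median 0.02). Only PHx3M, at 0.87, and PHx1M, at 0.52, stood out, and the other 4 post-PHx windows lay between -0.03 and 0.02. Cebpa ranged from -0.02 to 0.55 (median 0.03) and from -0.26 to 0.23 (median -0.01). Here PHx4M, at 0.55, and PHx3M, at 0.50, stood out, whereas PHx1M was at 0.01.

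The extents of these gains differed between tumors. In PHx1M the region with Foxa3 measured 1.42 Mb, with 84 probes at 0.55, and began 0.495 Mb before the gene. In PHx3M it measured 13.8 Mb, with 424 probes at 1.06 (2.09-fold), began 0.95 Mb before Foxa3 and ended 12.8 Mb after it, short of Cebpa. Cebpa lay there on a lower step of 7.72 Mb at a weighted level of 0.39, under the filter. This step began at position 34477068, inside the Cebpa window, so the window mean of 0.50 in PHx3M was an average across an edge. The left flank was at 0.60 and the right flank at 0.40. This window also held 1 extreme probe and had a median of 0.42. In PHx4M a region of 6.85 Mb at 0.57 held Cebpa, while Foxa3 was at 0.00. Between the genes, the 425 to 438 probes had a median of 0.29 in PHx1M, 1.07 in PHx3M and 0.27 in PHx4M. Irf2bp1 and Rshl1 were at 0.89 and 0.81 in PHx3M and at 0.26 and 0.40 in PHx1M, and Cebpg and Slc7a10 at 0.54 and 0.33 in PHx3M and at 0.50 and 0.57 in PHx4M. The lowest Cebpa window, -0.26 in Spon3F, held 3 extreme probes and had a median of 0.03.

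**Figure D3:**
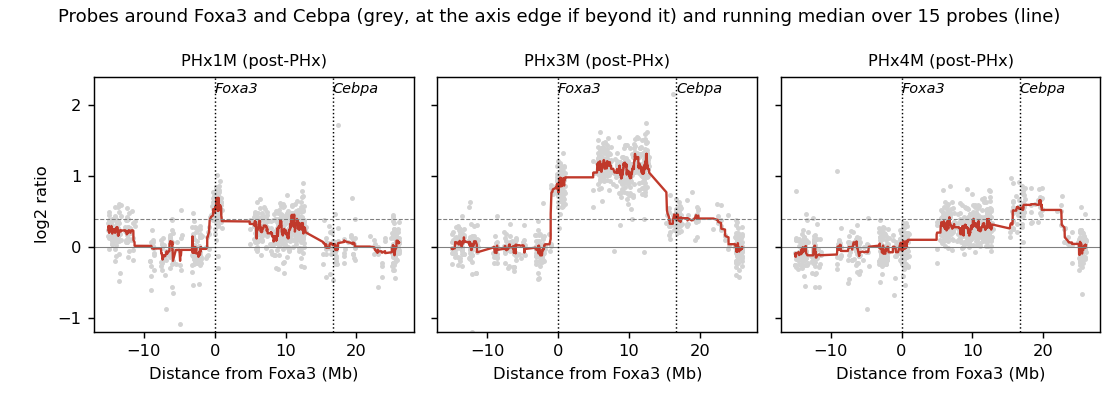
Log2 ratio of probes (grey dots) against their distance in Mb from Foxa3 in the 3 post-PHx tumors with a gain of Foxa3 or Cebpa, with the running median of 15 probes as a red line, dotted lines at both genes and a dashed line at 0.4. The gain rises just before Foxa3 in PHx1M and PHx3M (windows 0.52 and 0.87) but not in PHx4M (0.00), where the plateau lies at Cebpa (0.55).

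Foxa1, whose protein shares its DNA-binding domain with FOXA2 and FOXA3, behaved otherwise. Its single probe lies on chromosome 12 at 58458853 to 58458912 (mm8), between Slc25a21 and Sstr1, in the widest window of all, 2.39 Mb. The post-PHx windows ranged from -0.17 to 0.01 (median -0.05). The spontaneous ones ranged from -0.13 to 0.31 (median -0.06), with Spon4F at 0.31 and Spon2M at 0.26. Both values were close to the median of the whole chromosome, 0.36 in Spon4F and 0.27 in Spon2M. In Spon1M chromosome 12 had a median of 0.35 but Foxa1 was at -0.02. In Spon5F the chromosome had a median of -0.31 and the Foxa1 window was at -0.13, but an edge between levels, at position 59184872, lay inside this window. The left flank was at -0.002, the probe of Foxa1 itself at 0.13 and the right flank at -0.27, so the window was an average across the edge.

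Gata6 had the largest and most frequent gains. GATA6 is a zinc finger factor of early endoderm that acts before and alongside GATA4 in the liver bud. It was read by 2 probes on chromosome 18 at 11053956 to 11068780 (mm8), between Mib1 and Rbbp8. The post-PHx windows ranged from -0.09 to 1.745 with a median of 0.64. They were 1.745 (3.35-fold) in PHx2F, 1.06 in PHx6F, 0.82 in PHx3M, 0.47 in PHx1M, 0.23 in PHx5M and -0.09 in PHx4M. The spontaneous windows ranged from -0.14 to 0.35 with a median of 0.13, so the groups overlapped through PHx4M and PHx5M. Gained in 4 tumors, Gata6 was one of the 0.542% of genes with at least 4 gained tumors. Its mean over the 12 tumors, 0.41, was matched or passed by 0.186% of genes.

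The 4 gains of Gata6 were regions at the start of the chromosome, of 11.5 Mb in PHx6F (mean 1.04), 12.5 Mb in PHx2F (1.77), 13.7 Mb in PHx3M (0.80) and 18.7 Mb in PHx1M (0.41). Each began at or near the first probe, 7.8 Mb before Gata6, and ended 3.73 to 10.9 Mb after it. The median of chromosome 18 as a whole was between -0.11 and 0.03 in these 4 tumors, so that the windows of Gata6 exceeded it by 0.45 to 1.72. In the spontaneous tumors with the highest windows they lay within 0.083 of it. Spon4F was at 0.35 on a chromosome with a median of 0.32, Spon2M at 0.30 on one at 0.22, and Spon1M at 0.22 on one at 0.26. In PHx2F the first Gata6 probe stood at 3.34 and the second at 1.68, with the flanks at a mean of 1.67. Mib1 and Rbbp8 were at 1.73 and 1.63 in the same tumor. Over all 12 arrays the second probe differed from the first by -0.25 ± 0.54 (SD, n = 12).

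In Spon6F the edge of a gain lay beside Gata6. The 8 probes up to 236 kb before the gene had a mean of 0.78 and none was below 0.49, whereas the next 14 probes, from 205 kb before the gene onward and including both of its own, had a mean of -0.37 and none was above -0.10. The right flank was lower than the left by 1.01 (SE 0.149 over probes). The window mean of 0.05 in this tumor was therefore an average over 2 levels, and Gata6's own probes stood at -0.23. Mib1, the nearest named gene to the left, was at 0.88 in Spon6F and Rbbp8, to the right, at -0.51.

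**Figure D4:**
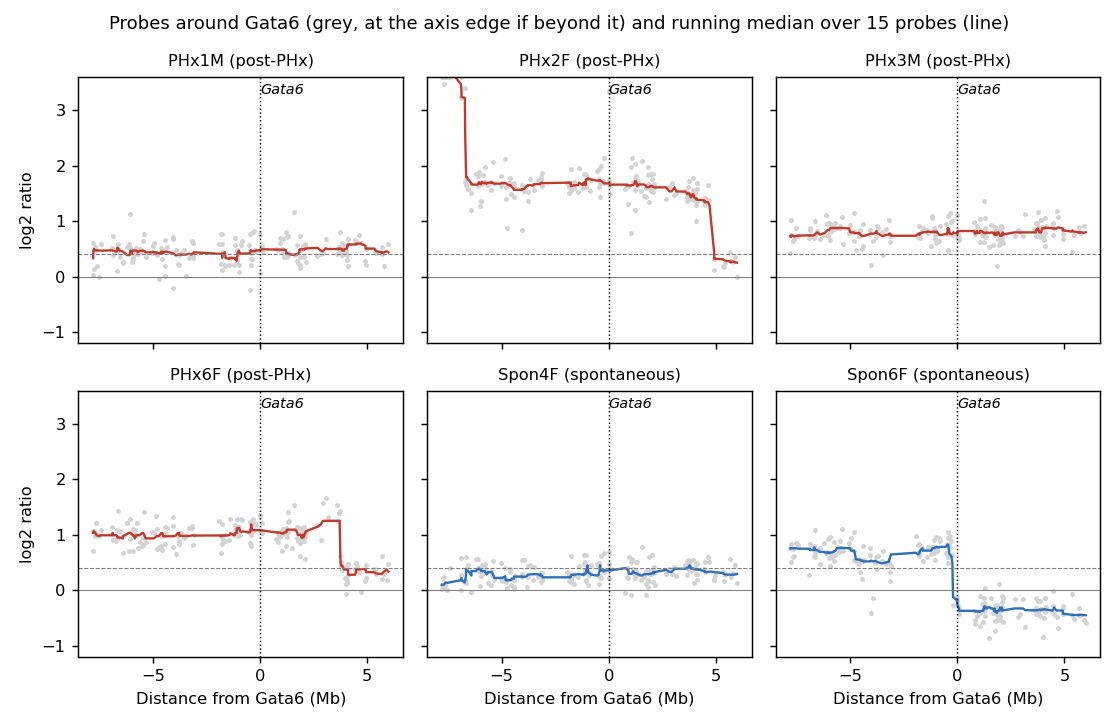
Log2 ratio of probes (grey dots) against their distance in Mb from Gata6 in 4 post-PHx and 2 spontaneous tumors, with the running median of 15 probes as a line, a dotted line at Gata6 and a dashed line at 0.4; probes beyond the axis are drawn at its edge. Gata6 lies inside the raised stretch in the 4 post-PHx tumors (windows 0.47 to 1.745), on an evenly raised chromosome in Spon4F (0.35), and just outside the raised stretch in Spon6F (own probes -0.23).

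Gata4, which encodes a factor needed for growth of the liver bud and for the sinusoidal endothelium, stayed near 0 in all tumors but one. Its 2 probes lie on chromosome 14 at 62153054 to 62186104 (mm8), between Neil2 and Blk. The post-PHx windows ranged from -0.10 to 0.00 (median -0.02) and the spontaneous ones from -0.39 to 0.07 (median -0.04). The low value was that of Spon5F, where a deleted region of 117 Mb at -0.49 (0.714-fold), 1540 probes, took in almost the whole of chromosome 14. Gata4's own probes were at -0.16 in that tumor and its flanks at -0.42.

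Prox1 and Onecut1 encode homeodomain factors of the liver bud, the first needed for hepatoblasts to move out into the surrounding tissue and the second for bile duct development and for the activation of Hnf4a. Prox1 was read by 2 probes on chromosome 1 at 191834977 to 191868807 (mm8), between Smyd2 and Rps6kc1. It ranged from -0.04 to 0.04 in the post-PHx tumors (median 0.03) and from -0.40 to 0.34 in the spontaneous ones (median -0.03). The extremes were Spon2M at 0.34, on a chromosome with a median of 0.28, and Spon3F at -0.40, on a chromosome at -0.02. The loss in Spon3F was a region of 15.3 Mb at -0.46 (0.727-fold) that reached the end of the chromosome, on an array that stood apart. Onecut1 was read by 2 probes on chromosome 9 at 74660730 to 74676047 (mm8), between Wdr72 and Arpp19, and ranged from -0.06 to 0.12 (median -0.03) and from -0.14 to 0.32 (median 0.07). Its highest window, 0.32 in Spon1M, lay on a chromosome with a median of 0.28. An edge between levels, shared with Spon2M, lay inside this window at position 74660730, the first probe of Onecut1. From there a step of 1.66 Mb stood at a weighted level of 0.39. The left flank was at 0.15, the gene's own probes at 0.52 and the right flank at 0.44. The right flank was higher than the left by 0.29 (SE 0.251 over probes).

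**Figure D5:**
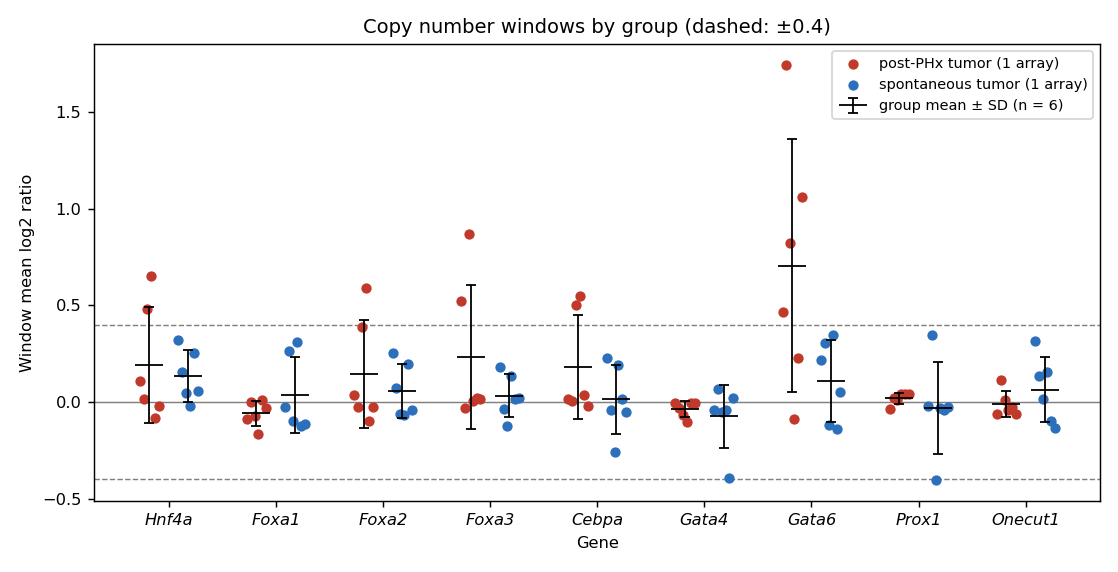
Window mean log2 ratio of each measured gene in post-PHx (red) and spontaneous (blue) tumors, 1 point per tumor, with the group mean ± SD (n = 6) in black and dashed lines at 0.4 and -0.4. Points above 0.4 are all post-PHx, and for every gene the groups overlap.

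The comparison of the groups asks whether removal of liver tissue went with another dosage of these genes. No member differed by limma's moderated test with Benjamini-Hochberg adjustment over all 20464 genes, and neither did any gene of the array (0% higher and 0% lower). At an unadjusted p under 0.05, 1237 genes were higher (6.04%) and 67 lower (0.327%) in post-PHx tumors, and of the members Gata6 was among the higher. The Gata6 window was 0.71 ± 0.65 in post-PHx tumors and 0.11 ± 0.21 in spontaneous ones (SD, n = 6 each), a difference of 0.60 with a limma SE of 0.247 (adjusted p = 0.711, range over the alternatives 0.237 to 1). Without PHx2F the difference was 0.39, and it ran from 0.39 to 0.75 when single tumors were left out. Foxa3 differed by 0.20 (SE 0.142, limma adjusted p = 0.979) and Cebpa by 0.17 (SE 0.118, limma adjusted p = 0.979). Without PHx3M these were 0.074 and 0.10, and without PHx4M that of Cebpa was 0.092. Without Spon3F it was 0.11. The other 6 differed by -0.09 (Foxa1) to 0.09 (Foxa2), each within its spread. For no member did the values of the groups fail to overlap (0.298% of all genes). Only 1 of the 3 slides held both groups. It held PHx5M, PHx6F, Spon5F and Spon6F, and with the slide as a block the group difference rests on the same arrays. Either way the difference of Gata6 was 0.69, of Foxa3 0.00 and of Hnf4a -0.21. The Gata6 windows of these arrays were 0.23, 1.06, -0.14 and 0.05, the last of them across an edge between levels. No gain of Foxa3 or Hnf4a lay on this slide.

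Taken over both groups, no member's mean was called different from 0 (limma, adjusted p under 0.05, against 0.0586% of all genes higher and 0.225% lower). Here 0 is the autosomal median of each array, so a shift shared by all autosomes would not show. Gata6 had a mean of 0.41 (SE 0.123, limma adjusted p = 0.134) and Hnf4a of 0.16 (SE 0.060, limma adjusted p = 0.200). Both were at an unadjusted p under 0.05, as were 5.8% of genes on the higher side. With own probes alone Hnf4a, at 0.36 (adjusted p = 0.0112), and Foxa2, at 0.24 (adjusted p = 0.0267), passed, but so did 7.92% of all genes on the higher side and 6.81% on the lower. The median of the 9 means was 0.10, against -0.0046 over all genes tested.

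In the order of their means, Gata6 at 0.41 was followed by Hnf4a at 0.16, Foxa3 at 0.13, Foxa2 and Cebpa at 0.10, Onecut1 at 0.03, Prox1 at -0.0055, Foxa1 at -0.01 and Gata4 at -0.05. Differences between neighbours in this order were smaller than their spread over tumors. The gap between Gata6 and Hnf4a, the widest, was 0.24 ± 0.65 (SD, n = 12), and Gata6 was the higher in 7 of 12 tumors. The range of a member over the 12 tumors had a median of 0.74, against 0.37 over all genes.

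A further comparison set each gene's own probes against its flanks, since a change confined to the gene would show there. Over all genes 12.9% were higher and 10.2% lower than their flanks (limma, adjusted p under 0.05), so steady differences between probes were common. Among the members Hnf4a was higher by 0.20 (SE 0.048, limma adjusted p = 0.00896), Foxa2 by 0.14 (SE 0.033, limma adjusted p = 0.00859) and Gata4 by 0.12 (SE 0.025, limma adjusted p = 0.00558), each in 11 of 12 tumors. For Hnf4a the sign turned with another background correction (-0.15, adjusted p = 0.00953), under which 24.8% of all genes were higher and 20.5% lower, and without the 3 arrays that stood apart it was 0.11 (adjusted p = 0.0557). The 2 probes of Foxa3, 3.5 kb apart, also differed on every array, the second above the first by 0.60 ± 0.16 (SD, n = 12). Such offsets were present in tumors with and without a gain.

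The array gene with at least 2 probes whose own values over the 12 tumors were most like those of a member lay on the same chromosome for 8 of the 9. Among 11138 genes compared, these were Nfs1 for Foxa2 (r = 0.99, 8.08 Mb away), Impact for Gata6 (r = 0.98, 2.06 Mb), Setd2 for Onecut1 (r = 0.96, 35.8 Mb) and Zfp59 for Foxa3 (r = 0.96, 9.38 Mb). For Hnf4a it was 5830472M02Rik (r = 0.95, 0.032 Mb), for Cebpa Ccdc123 (r = 0.93, 0.284 Mb), for Gata4 Klhl1 (r = 0.92, 32.9 Mb) and for Prox1 Kcnh1 (r = 0.90, 2.26 Mb). The exception was Foxa1, with Cbx5 on chromosome 15 (r = 0.88). Neighbours on a chromosome share its gains and losses, and each r is a description over 12 tumors chosen from many.

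The genes of 3 related lists were read in the same way. Of 25 other liver transcription factors and nuclear receptors, 5 of 300 gene and tumor pairs (1.67%) were gained and 2 lost, no more than the 1.87% and 1.01% over all genes. Cebpg, which encodes another C/EBP protein and lies 68.5 kb from Cebpa, was gained in 2 post-PHx tumors, up to 0.56. Tbx3, a T-box factor, was at 0.52 in Spon2M and at -0.55 in Spon3F, both on arrays that stood apart, and Onecut2, a relative of Onecut1, at 0.91 in Spon1M. Of 23 genes for hepatocyte functions that these factors control, 6 of 276 pairs (2.17%) were gained, near the share over all genes, and 2 were lost. Pck1, the key enzyme of gluconeogenesis, was at 0.60 in PHx4M and -0.55 in Spon3F. Its gain lay in the chromosome 2 region of PHx4M that also held Hnf4a and Foxa2. F7, a clotting factor, was at 0.72 in PHx3M, and Slc10a1, the bile acid importer, at -0.62 in Spon5F. Of 10 biliary and progenitor genes, 1 of 120 pairs was gained, that of the Notch ligand Jag1 at 0.43 in PHx3M. It lay within the chromosome 2 stretch that also held Hnf4a and Foxa2 in that tumor. The next in that list, Krt7, a keratin of bile ducts, and Cd44, a surface receptor, were past 0.4 in no tumor, with windows of at most 0.37 and 0.31 in size. No gene of the 3 lists passed limma's test between the groups or against 0.

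Abcb4, the gene inactivated in all mice, lies on chromosome 5 and was at 1.66 in PHx3M, in an amplified region of 6.46 Mb. A region with the same bounds was called in PHx1M, with 94 probes at an unweighted mean of 0.399, although the Abcb4 window was at 0.19 there. The windows of the other tumors lay between -0.18 and 0.39. Tumor and liver of a mouse carry the same knockout, so these values do not check the genotype.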

How the data were processed

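The deposited files are scanner output of Agilent mouse CGH arrays (build mm8), read by the authors with Feature Extraction 10.5.1.1, which subtracted background, normalized the dyes and gave a log10 ratio, its error, intensity values of both channels and spot flags. Per the labels Cy5 held the tumor and Cy3 non-tumor liver. The deposited log10 ratio was converted to log2, spots with an outlier flag were dropped, replicate spots averaged, and each array centred on its autosomal median. Whether a probe is exonic or intronic was not assigned here, since no annotation of mm8 was used. Probe sequences were not analysed here.

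Windows of every gene name were fitted with limma 3.58.1 (R 4.3.3; lmFit, eBayes), and p-values were adjusted over 20464 names. Regions were called with Python 3.11.15 with a score over runs of probes, each weighted by its error, after the authors' ADM-2 and with their filters. Both steps were tested on simulated data. The intensity columns, as deposited, served the normexp alternative (offset 50). Precision is limited by 6 tumors per group. The study describes the arrays as 6 mice per group. The members and lists were chosen with earlier results of these data known. Named were the members, Abcb4, the nearest named gene on either side of each member, the gene most alike to each by Pearson r, and up to 3 genes of each other list with the most tumors past 0.4. Alternatives varied background, centring, flags, window size, threshold, caller settings, slide, sex and replicate blocks and left out each tumor. Leaving out 3 arrays and the window median were chosen after seeing the data.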

Additional observations from a re-analysis of the deposited data

Results flagged for a closer look

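Gata4 in Spon5F, at a window log2 ratio of -0.39, lay far from the other 5 spontaneous tumors: the gap to the next lowest was 0.745 of the range of the group, above Dixon's critical value for a group of 6. It was the only such value among 18 groups examined, and chance gives about 1 in 20. Chromosome 14 as a whole had a median of -0.47 in this tumor.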

How the results depend on the processing

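The count of 11 gained pairs was 19 with own probes alone (all genes 3.35% of post-PHx and 4.12% of spontaneous pairs), 18 at a threshold of 0.3 (3.15% and 3.96%), 5 at 0.6 (1.2% and 0.454%), and 7 to 11 when single tumors were left out (7 without PHx3M). The single lost pair was 0 without centring, with own probes alone, at a threshold of 0.6 and without the 3 arrays that stood apart, 2 with centring on the mode, with 5 flanking probes and at a threshold of 0.3, and 0 to 1 when single tumors were left out. The 13 pairs in a called region became 20 at a threshold of 0.3 and 6 at 0.6, and were 10 to 13 when single tumors were left out. No alternative made a member differ between the groups. The count of members whose mean was called different from 0 was 2 with own probes alone (7.92% of all genes higher, 6.81% lower) and 0 otherwise. The count of those that differed from their flanks was 3, but 6 after normexp (24.8% of all genes higher, 20.5% lower). The tumor numbers of the groups did not pair the tumors, with correlations of deviations of -0.17 to 0.55 between tumors of one number. With the replicate block the difference of Gata6 was 0.60 (adjusted p = 0.609) and no member was called between the groups. Some differences between groups turned sign. With the slide as a block or on the slide with both groups they were -0.21 for Hnf4a, 0.11 for Foxa1, -0.14 for Foxa2 and 0.073 for Onecut1, with sex as a covariate -0.017 for Hnf4a, with own probes -0.0036 for Foxa2, -0.0026 for Gata4 and -0.0078 for Prox1, and without the 3 arrays 0.014 for Onecut1. When single tumors were left out, they ran from -0.034 to 0.11 for Hnf4a, from -0.0042 to 0.13 for Foxa2, from -0.026 to 0.066 for Gata4 and from -0.025 to 0.12 for Prox1. Means that turned sign were, on the slide with both groups, -0.0046 for Cebpa, 0.0036 for Prox1 and -0.079 for Onecut1, with own probes 0.052 for Gata4 and 0.050 for Prox1, after normexp 0.014 for Prox1 and -0.0049 for Onecut1, with window medians 0.0087 for Foxa1, and without the 3 arrays -0.018 for Onecut1, and with single tumors left out from -0.039 to 0.0043 for Foxa1 and from -0.043 to 0.032 for Prox1. Own probes minus flanks turned to -0.15 for Hnf4a, 0.12 for Foxa1 and -0.088 for Prox1 after normexp, to 0.12 for Foxa1 and -0.050 for Prox1 on the slide with both groups, to 0.073 for Foxa1 without the 3 arrays, and to -0.0065 for Onecut1 with 5 flanking probes, and ran from -0.030 to 0.024 for Foxa1, from -0.029 to 0.076 for Gata6 and from -0.0052 to 0.045 for Onecut1 with single tumors left out. The causes were not tested. Noise and 1 or 2 probes per gene limit what own probes can show.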
